A study of Mus musculus with 8 samples.

Results

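Histone transcripts were read from testis total RNA on Affymetrix expression arrays. The mice belong to 4 groups, which the titles name Mus musculus castaneus, Mus musculus domesticus, Mus musculus musculus and Mus musculus ssp. Below they are called castaneus, domesticus, musculus and ssp, of which all but ssp are subspecies names. The members are the 33 of 12422 probe sets on the array whose annotated symbol begins with Hist, H1f, H2a, H2b, H3c, H3f or H4c, leaving out the histocompatibility genes named H2-. Each probe set joins several short probes and reads 1 transcript or a few related ones. Each group has 2 arrays, which the labels call technical replicates, so every p-value here measures the spread between technical replicate arrays and not between animals. All 4 groups share the tissue and the assay, while the sources used here give neither the meaning of ssp, nor ages, nor how many animals gave each RNA.

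Histones are the proteins around which DNA is wound into nucleosomes. The H2A, H2B, H3 and H4 proteins form the nucleosome core, and H1 binds the DNA that links nucleosomes. Most histone genes lie in clusters and are transcribed when DNA is replicated, and their mRNAs usually end in a stem-loop instead of a poly(A) tail. Replacement variants such as H2A.Z and H3.3 are made outside S phase from polyadenylated mRNAs. Male germ cells also make histones of their own, among them the linker histone H1t (H1f6) and the H2B variant TH2B (H2bc1), before most histones are exchanged for transition proteins and then protamines in spermatids.

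The rule named 52 histone symbols, 34 of them on chromosome 13 and 9 on chromosome 3, where the large histone clusters lie. The members fall into 5 probe sets for replication-dependent H1 genes, 3 for H2A, 7 for H2B, 8 for H3, 7 for replacement variants and 3 for germ cell histones, and the annotation gave no probe set a symbol beginning with H4. Of the 33, 24 carry 1 symbol and 9 carry several, and many histone genes are near-identical. A suffix that marks probes able to match related transcripts, or built under fewer design rules, is carried by 13, and for these the gene that was read is uncertain. The sources used here do not say how the RNA was primed for labelling.

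The promoters of the genes behind the H2B probe set with the smallest p-value, of H2bc22 and of a somatic and germ cell counterpart of H1 and H2B are shown to make these genes concrete. Each runs from 250 bases before to 50 bases after the gene's start (RefSeq, GRCm38.p6). Capitals mark 5 words searched on both strands, which are AAACACA (the H1 box of linker histone promoters), CCAAT, the octamer ATTTGCAT, TATAAA and TATATA. The 2 TATA words may overlap each other. H2bc6 has 2 listed starts, and the table holds no window for H2bc4.
H2bc8, chr13:23571150-23571449, plus strand: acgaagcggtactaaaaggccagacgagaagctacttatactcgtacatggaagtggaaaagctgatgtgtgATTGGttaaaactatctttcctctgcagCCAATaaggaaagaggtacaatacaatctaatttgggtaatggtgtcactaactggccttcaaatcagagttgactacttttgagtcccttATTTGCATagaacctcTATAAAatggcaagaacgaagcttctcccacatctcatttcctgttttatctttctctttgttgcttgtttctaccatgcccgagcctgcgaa
H2bc6, chr13:23621045-23621344, minus strand: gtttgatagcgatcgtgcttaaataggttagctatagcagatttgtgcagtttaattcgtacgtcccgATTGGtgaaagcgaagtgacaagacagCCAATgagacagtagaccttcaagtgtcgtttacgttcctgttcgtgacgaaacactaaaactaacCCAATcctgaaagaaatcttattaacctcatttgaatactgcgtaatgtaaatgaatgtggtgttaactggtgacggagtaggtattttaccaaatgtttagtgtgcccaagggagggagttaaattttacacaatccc
H2bc6, chr13:23585921-23586220, minus strand: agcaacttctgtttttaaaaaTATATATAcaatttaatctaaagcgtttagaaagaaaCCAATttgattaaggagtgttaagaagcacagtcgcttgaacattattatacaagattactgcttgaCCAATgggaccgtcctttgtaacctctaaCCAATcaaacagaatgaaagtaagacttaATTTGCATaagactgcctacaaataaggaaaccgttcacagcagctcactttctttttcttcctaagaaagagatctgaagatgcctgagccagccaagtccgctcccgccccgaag
H2bc22, chr13:21787238-21787537, plus strand: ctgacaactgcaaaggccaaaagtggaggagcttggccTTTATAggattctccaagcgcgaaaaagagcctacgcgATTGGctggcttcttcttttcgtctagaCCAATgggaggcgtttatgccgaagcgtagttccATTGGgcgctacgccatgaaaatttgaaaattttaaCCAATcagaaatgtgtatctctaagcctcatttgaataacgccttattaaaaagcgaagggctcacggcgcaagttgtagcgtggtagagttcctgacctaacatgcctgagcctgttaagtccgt
H2bc1, chr13:23934107-23934406, minus strand: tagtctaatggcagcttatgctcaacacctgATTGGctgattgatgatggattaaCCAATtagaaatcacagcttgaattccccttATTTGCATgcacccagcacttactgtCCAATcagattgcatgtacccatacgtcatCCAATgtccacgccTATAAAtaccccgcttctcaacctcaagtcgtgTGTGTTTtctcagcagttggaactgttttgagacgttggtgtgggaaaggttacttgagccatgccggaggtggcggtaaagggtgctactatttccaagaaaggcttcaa
H1f2, chr13:23738557-23738856, plus strand: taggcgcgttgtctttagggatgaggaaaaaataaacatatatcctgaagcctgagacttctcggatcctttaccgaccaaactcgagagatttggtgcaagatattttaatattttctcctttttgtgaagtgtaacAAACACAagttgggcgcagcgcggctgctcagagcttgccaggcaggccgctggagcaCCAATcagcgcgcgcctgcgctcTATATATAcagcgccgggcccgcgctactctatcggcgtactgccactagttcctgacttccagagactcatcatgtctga
H1f6, chr13:23695561-23695860, plus strand: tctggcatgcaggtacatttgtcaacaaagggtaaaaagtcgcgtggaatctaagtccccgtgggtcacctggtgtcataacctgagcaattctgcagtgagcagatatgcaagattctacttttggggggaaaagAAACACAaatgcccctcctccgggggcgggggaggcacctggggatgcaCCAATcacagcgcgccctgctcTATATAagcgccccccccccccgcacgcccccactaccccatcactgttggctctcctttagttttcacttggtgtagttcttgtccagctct

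The octamer lay at position -59 from the start in H2bc8 and at -67 in the second H2bc6 window, and at -164 in H2bc1. Over the 46 of 52 symbols with a window, it was in 5 of 7 H2B windows (71.4%), against 1.74% of all 32851 windows. The H1 box lay at -112 in H1f2 and at -114 in H1f6, and was in 5 of 8 H1 windows (62.5%), against 7.18% of all windows. CCAAT was in 45 of the 47 member windows (95.7%), against 37.4% of all. These are matches of letters, not measured binding sites.

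No histone probe set passed the test for a difference among the 4 groups, and the probe set shared by H2bc4, H2bc6 and H2bc8 came nearest, lowest in castaneus and highest in domesticus. Of the 33, 21 were bright enough to be tested, meaning that they reached their array's 40th percentile on at least 2 arrays, and 16 of the 21 reached it on all 8. A difference was called when limma's moderated F test, adjusted by Benjamini-Hochberg over all 8874 tested probe sets, gave p under 0.05 and the means of the groups lay 1 log2 unit or more apart. By this rule limma called 0 of the 21, against 1.76% of all tested probe sets. At an unadjusted p under 0.05 there were 2 of 21 (9.52%), against 15.9% of all. A range of 1 log2 unit or more was reached by 3 of 21 (14.3%), against 38.7% of all. Between 2 groups at a time limma called 0 members in any of 6 pairs, against 2.33% of all probe sets called in at least 1 pair, and 1 to 3 members a pair had an unadjusted p under 0.05, against 10.8% to 13.5% of all. The shares of all probe sets called were 0.676% for castaneus with domesticus, 0.947% for castaneus with musculus, 0.349% for castaneus with ssp, 0.744% for domesticus with musculus, 0.687% for domesticus with ssp and 0.98% for musculus with ssp. The median range of group means was 1.56-fold over the 21 and 1.75-fold over all tested probe sets, and the median difference between replicate arrays was 1.22-fold and 1.32-fold. The members were brighter, since 11 of the 21 had a geometric mean of at least 1000, against 1761 of all 8874. At that brightness the median range was 1.41-fold both for the members and for all. Below it, the median range was 1.74-fold for the members and 1.89-fold for all.

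**Figure D1:**
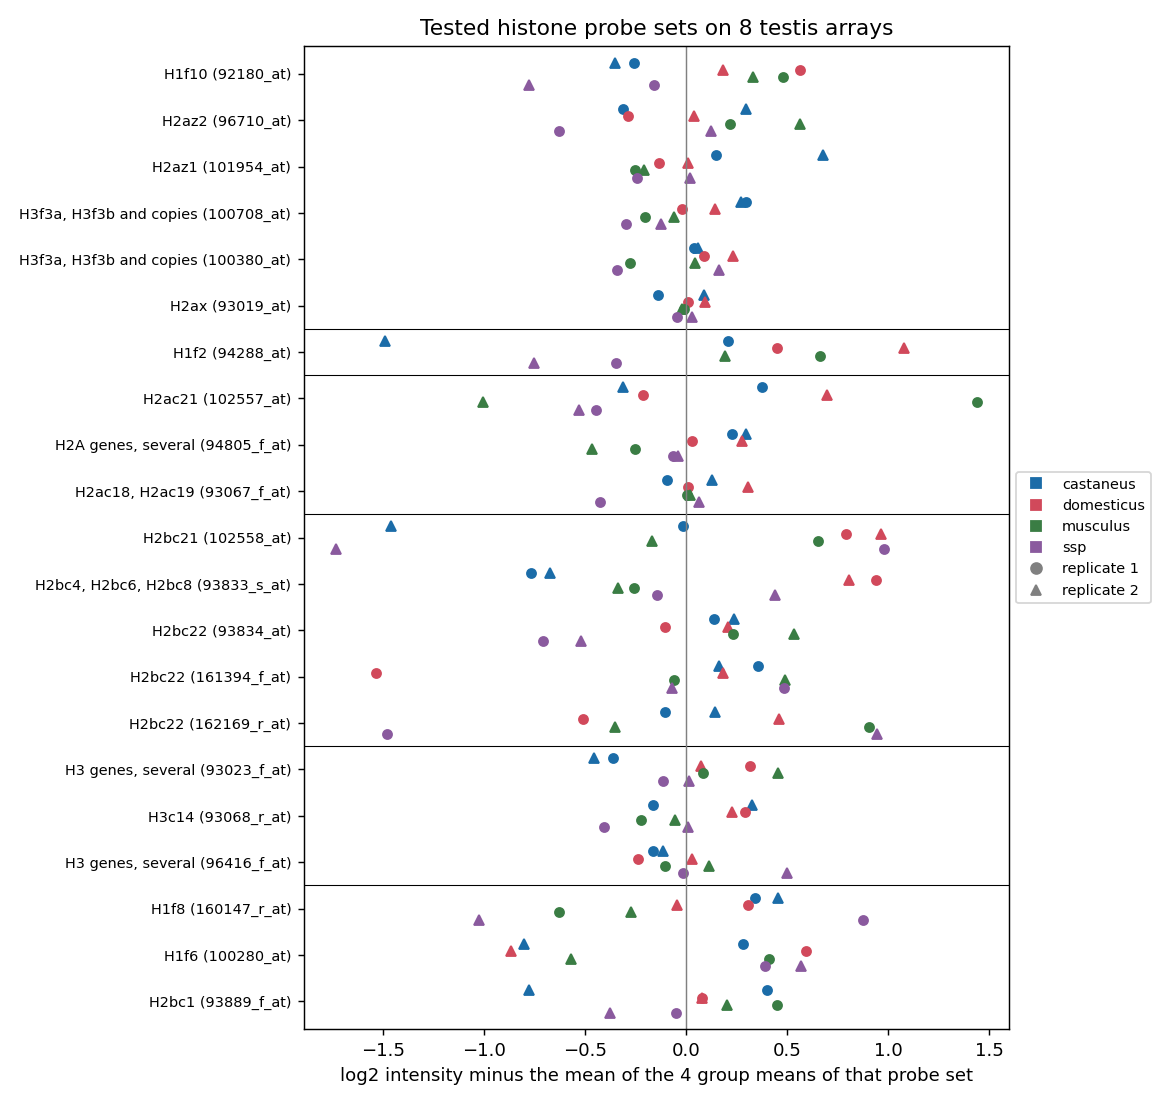
Each row is a tested histone probe set, the horizontal axis is its log2 intensity on an array minus the mean of its 4 group means, colours are groups, shapes are replicates, and lines separate the classes. The ssp replicates of H2bc21, at 181 and 27.6, lie far apart, while the points of H2ax lie close together.

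Of the replication-dependent H2B genes, the probe set shared by H2bc4, H2bc6 and H2bc8 had the smallest p-value of all members. It read 179 and 191 on the castaneus arrays, 583 and 533 on the domesticus arrays, 255 and 241 on the musculus arrays and 276 and 413 on the ssp arrays. Both domesticus arrays lay above the other 6, and both castaneus arrays below them. The group means spanned 3.02-fold (limma F, adjusted p = 0.116). The castaneus mean minus the domesticus mean was -1.59 on the log2 scale (SE 0.28, limma adjusted p = 0.0834), and the domesticus mean minus the musculus mean was 1.17 (SE 0.28, limma adjusted p = 0.165). This probe set passed the F test with the dim filter at the 60th percentile (limma adjusted p = 0.0453) and passed between castaneus and domesticus with a trended, robust variance model (limma adjusted p = 0.0394). It was called under none of the other settings, and without the dim filter the F test gave 0.155 (limma adjusted p).

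H2bc22, another clustered H2B gene, has 3 probe sets that did not follow 1 pattern. The brightest read 4523 and 4844 in castaneus, 3823 and 4748 in domesticus, 4831 and 5959 in musculus and 2518 and 2872 in ssp. Both ssp arrays were below the other 6, and the means spanned 1.99-fold, just under the size needed for a call (limma F, adjusted p = 0.261). The musculus mean minus the ssp mean was 0.996 on the log2 scale (SE 0.26, limma adjusted p = 0.17).

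The dimmest H2bc22 probe set read 127.5 and 111 in castaneus, 34.4 and 113 in domesticus, 95.5 and 139.8 in musculus and 139 and 94.9 in ssp. The remaining H2bc22 probe set read 369 and 439 in castaneus, 278.5 and 547 in domesticus, 745 and 311 in musculus and 142 and 766 in ssp. In neither was ssp apart from the others, and the ssp replicates of the remaining one differed 5.39-fold. H2bc21, of the chromosome 3 cluster, read 90.7 and 33.3 in castaneus, 159 and 179 in domesticus, 144 and 81.5 in musculus and 181 and 27.6 in ssp. Its range of means, 3.07-fold, was the widest of the 21 members, but its ssp replicates differed 6.56-fold and its castaneus replicates 2.72-fold (limma F, adjusted p = 0.698).

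**Figure D2:**
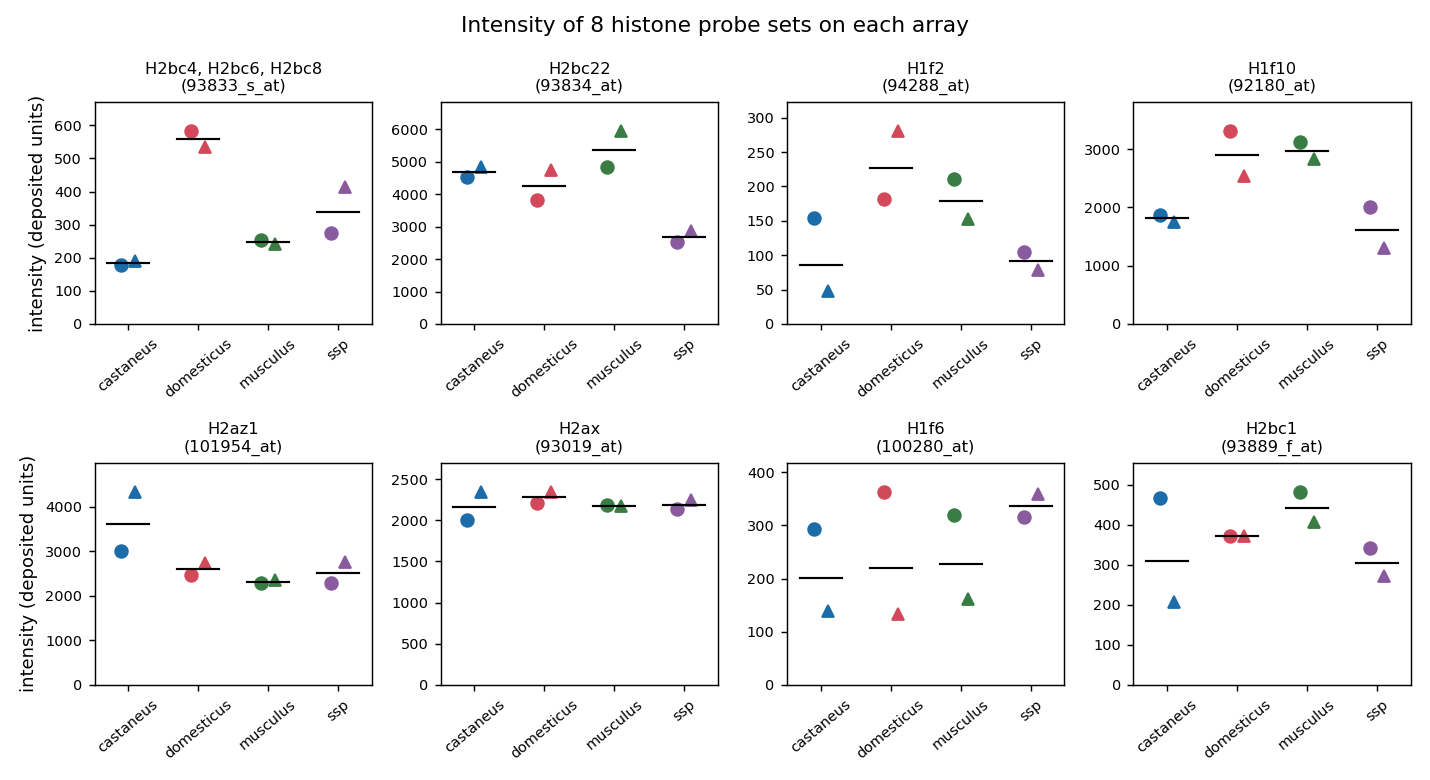
The vertical axis of each panel is the deposited intensity from 0, points are single arrays (circle for replicate 1, triangle for replicate 2) and bars are geometric means of the 2 arrays. For the probe set of H2bc4, H2bc6 and H2bc8 the domesticus arrays stand at 583 and 533 and the castaneus arrays at 179 and 191, while H2ax keeps to between 1999.7 and 2351 on all 8 arrays.

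Of the 3 H2A probe sets, none passed the F test. The probe set shared by H2ac18, H2ac19 and a pseudogene read 9648 and 11265 in castaneus, 10364 and 12727 in domesticus, 10357 and 10464 in musculus and 7661 and 10756 in ssp. The groups overlapped, and the means spanned 1.26-fold (limma F, adjusted p = 0.869). A probe set matching 13 H2A genes and Trim17, a gene that is no histone, read 4419 and 4642 in castaneus, 3849.5 and 4582 in domesticus, 3175 and 2740.3 in musculus and 3615 and 3669 in ssp.

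Both musculus arrays were the lowest in that shared H2A probe set, and the castaneus mean minus the musculus mean was 0.62 on the log2 scale (SE 0.24, limma adjusted p = 0.339). H2ac21, a single clustered H2A gene, read 102 and 63.5 in castaneus, 67.9 and 128 in domesticus, 213 and 39.2 in musculus and 57.9 and 54.5 in ssp. Its musculus replicates alone spanned every other array (5.44-fold apart).

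H3 was read by 3 tested probe sets, all of them able to match several genes or built under fewer design rules. The first of a pair that each match 12 clustered H3 genes read 542 and 507 in castaneus, 866 and 731.5 in domesticus, 737.5 and 952 in musculus and 643 and 702 in ssp. Both castaneus arrays were the lowest, and the castaneus mean minus the musculus mean was -0.68 on the log2 scale (SE 0.26, limma adjusted p = 0.331). The other, annotated to the same 12 genes, read 975 and 1009.5 in castaneus, 926.5 and 1115 in domesticus, 1018 and 1185 in musculus and 1083 and 1548.5 in ssp. There the castaneus arrays lay inside the domesticus range, so the lower castaneus reading was not shared by both probe sets. H3c14, on chromosome 3, read 14387 and 20193 in castaneus, 19758 and 18865.5 in domesticus, 13834 and 15535 in musculus and 12156 and 16222 in ssp. The groups overlapped, and the castaneus array of replicate 2 was the highest and the ssp array of replicate 1 the lowest of the 8. H3c14 is also among the 12 genes of the pair above, which read only 507 to 1548.5. It is among the 8 genes that share the dim H3 probe sets as well. The bright reading came from a probe set built under fewer design rules, and the gene behind it is uncertain.

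H1f2, the clustered linker histone H1.2, was the replication-dependent H1 gene bright enough to be tested. It read 154 and 47.5 in castaneus, 182 and 281 in domesticus, 211 and 152.5 in musculus and 105 and 79.1 in ssp. The means spanned 2.65-fold, but the castaneus replicates themselves differed 3.23-fold (limma F, adjusted p = 0.435). The probe sets of H1f1, H1f3, H1f4 and H1f5 were too dim to test, and H1f4 was at or below the floor of 18.7 on all 8 arrays.

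Among the germ cell histones, H1f6 had wide gaps between replicates. This linker histone of spermatocytes, H1t, read 293 and 138 in castaneus, 364 and 132 in domesticus, 320.4 and 162 in musculus and 316 and 358 in ssp. Replicate 1 was the higher in castaneus, domesticus and musculus, by 2.12, 2.75 and 1.98-fold, and replicate 2 was the higher in ssp by 1.13-fold. The means spanned 1.67-fold (limma F, adjusted p = 0.854). H2bc1, the TH2B gene that replaces much of the canonical H2B in spermatocytes, read 466 and 205.5 in castaneus, 372 and 372.5 in domesticus, 482 and 406 in musculus and 340.4 and 272 in ssp. The castaneus replicates, 2.27-fold apart, spanned the other groups except for the higher musculus array, and the range of means was 1.46-fold (limma F, adjusted p = 0.806).

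H1f8, the linker histone best known from oocytes, read 230 and 249 in castaneus, 224.5 and 176 in domesticus, 117 and 150.5 in musculus and 333 and 89.3 in ssp. Both musculus arrays lay below all castaneus and domesticus arrays, and the ssp replicates, 3.73-fold apart, lay on either side of all 6 others (limma F, adjusted p = 0.813). Hils1, a spermatid linker histone whose symbol the rule does not take in, read 8147 and 13378 in castaneus, 8096 and 12577 in domesticus, 6810.5 and 8562 in musculus and 7775 and 10795 in ssp. Replicate 2 was the higher in every group, and the groups overlapped (limma F, adjusted p = 0.854).

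The replacement variants had the closest replicates, with a median difference between replicate arrays of 1.12-fold over 6 tested probe sets. H2ax encodes the variant that is phosphorylated at DNA breaks and across the sex chromosomes of meiotic spermatocytes. It read 1999.7 and 2344 in castaneus, 2216 and 2351 in domesticus, 2189 and 2171 in musculus and 2134 and 2246 in ssp, a 1.05-fold range of means and the narrowest of the 21 members (limma F, adjusted p = 0.995). H2az1, which encodes H2A.Z found at promoters, read 3009 and 4342 in castaneus, 2474 and 2733 in domesticus, 2281.5 and 2352 in musculus and 2293.5 and 2759 in ssp. Both castaneus arrays were above the other 6, and the castaneus mean minus the musculus mean was 0.64 on the log2 scale (SE 0.28, limma adjusted p = 0.394).

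H2az2, which encodes a close relative of that protein, was not highest in castaneus. It read 1117 and 1705 in castaneus, 1136 and 1425 in domesticus, 1611 and 2053 in musculus and 897 and 1511 in ssp. The groups overlapped, and the ssp replicates were 1.69-fold apart (limma F, adjusted p = 0.715). H1f10, the linker histone H1.X encoded outside the clusters, read 1876 and 1755 in castaneus, 3313 and 2546 in domesticus, 3121 and 2823 in musculus and 2006 and 1307 in ssp. All domesticus and musculus arrays were above all castaneus and ssp arrays, and the means spanned 1.83-fold (limma F, adjusted p = 0.32). The musculus mean minus the ssp mean was 0.87 on the log2 scale (SE 0.30, limma adjusted p = 0.289).

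H3.3, which takes the place of replication-dependent H3 outside S phase, is encoded by H3f3a and H3f3b, and 2 probe sets matched both with their close copies. The first read 7565 and 7436 in castaneus, 6088 and 6813.5 in domesticus, 5356 and 5909 in musculus and 5015 and 5665.5 in ssp. The second read 3876 and 3922 in castaneus, 4010.1 and 4429 in domesticus, 3107 and 3880.5 in musculus and 2970.3 and 4222 in ssp. Both castaneus arrays were the highest in the first and lay below both domesticus arrays in the second (limma F, adjusted p = 0.585 and 0.892). Over the 21 members, 6 had both arrays of 1 group beyond the other 6 (28.6%), against 39.8% of all tested probe sets.

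**Figure D3:**
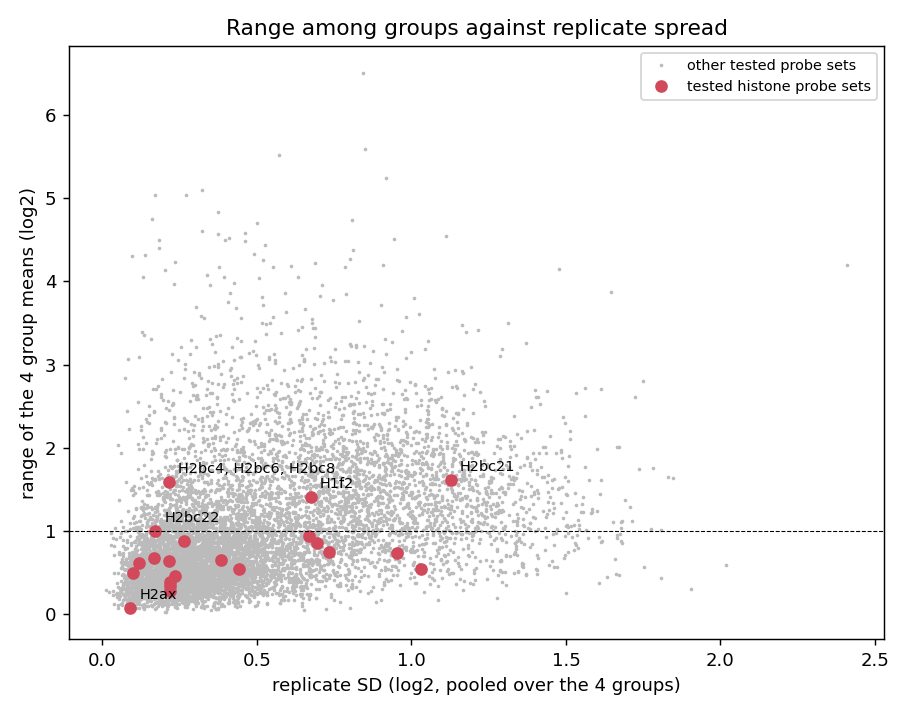
Each point is a tested probe set, with its replicate SD over the 4 groups on the horizontal axis and the range of its 4 group means on the vertical axis, both in log2, and the dashed line at the range of 1 that a call requires. Of the 21 histone probe sets in red, 3 lie above the line (H2bc21, H1f2 and the probe set of H2bc4, H2bc6 and H2bc8), and of these the last has the smallest replicate SD.

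The 12 dim probe sets were those of H1f1, H1f3, H1f4, H1f5, H2aj, H2bc3 and H2bc18, 3 of H3c8 and 2 shared by 8 clustered H3 genes. Of their 96 values, 45 were at or below the floor, and 2 of the 12, those of H1f4 and H2bc3, were so on all 8 arrays. The highest of the 96 was 237, for H3c8 on ssp replicate 2, where the other ssp array read 9.1 in the same probe set. These 12 were compared between groups only without the dim filter, where limma's F test called 0 of all 33 members and 31 of all 12422 probe sets. At an unadjusted p under 0.05 there were 2 of the 33 and 1698 of the 12422.

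Set against the mean of the other 3 groups, most members were below it in ssp and above it in domesticus. In ssp, 17 of the 21 members were below the mean of the other 3 groups, with a median log2 difference of -0.25, against a median of 0.05 over all tested probe sets. This shift was not tested, and ssp replicate 1 decided it: 4 of 21 members on that array lay above the mean of the 4 groups, against 11 of 21 on ssp replicate 2, and without ssp replicate 1 the median was -0.02. In domesticus 15 of 21 members were above the mean of the others, with a median of 0.17, against -0.01 over all. Domesticus replicate 2 had 19 of 21 members above the mean of the 4 groups and domesticus replicate 1 had 13, and the median was 0.09 without domesticus replicate 2 and 0.08 without the dim filter. In castaneus and musculus 11 and 12 of the 21 were above the mean of the others, with medians of 0.02 in both.

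The genes that process histone mRNA and hand histones to DNA held 1 called difference, Rbbp4. Of 32 genes in this list, 21 were tested, and 1 passed limma's F test, against 1.76% of all probe sets. Rbbp4, a histone-binding subunit of chromatin assembly factor 1 and of several deacetylase complexes, read 263 and 281 in castaneus, 1248 and 1546 in domesticus, 662 and 525 in musculus and 350.3 and 480 in ssp. Both domesticus arrays were the highest and both castaneus arrays the lowest, the same order of extremes as in the probe set of H2bc4, H2bc6 and H2bc8. Its castaneus mean minus its domesticus mean was -2.35 on the log2 scale (SE 0.28, limma adjusted p = 0.0381), and the F test gave an adjusted p of 0.0446 (limma). The call ended with any 1 of the 8 arrays left out (limma adjusted p of 0.0643 to 0.187), without the dim filter (0.0828) and with the replicate number as a block (0.0833), while the range of means in these settings stayed between 4.59 and 5.69-fold, against 5.11-fold with all arrays.

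Of 26 genes of DNA replication and S phase, when clustered histone genes are transcribed, 22 were tested and limma called 0 in the F test and in every pair. At an unadjusted F p under 0.05 there were 4 of the 22, against 15.9% of all tested probe sets. In castaneus 15 of the 22 were lower than in domesticus, with a median log2 difference of -0.38, against 0.02 over all tested probe sets. Castaneus was also lower than musculus in 16 of the 22 (median -0.35, against -0.003 over all). Domesticus was above ssp in 15 (median 0.32, against -0.05 over all) and above musculus in 13 (median 0.11, against -0.02 over all). Castaneus was above ssp in 12, with a median of 0.04. Cdc6, which loads the replicative helicase, read 107 and 98.5 in castaneus, 310.4 and 275.5 in domesticus, 74.2 and 121 in musculus and 155.5 and 16.4 in ssp, and both domesticus arrays were the highest (limma F, adjusted p = 0.485). Pcna, the sliding clamp of DNA polymerase, read 550.5 and 938 in castaneus, 2141 and 2244 in domesticus, 1339.5 and 1392 in musculus and 1334 and 2047 in ssp (limma F, adjusted p = 0.199). Both domesticus arrays of Pcna were above the other 6, and replicate 1 of castaneus was the lowest. Pold1, the catalytic subunit of DNA polymerase delta, read 420.5 and 279 in castaneus, 680 and 342.5 in domesticus, 546 and 276 in musculus and 164 and 95.3 in ssp (limma F, adjusted p = 0.272). Both ssp arrays were the lowest, but in a second, dimmer Pold1 probe set ssp replicate 2 was the highest (limma F, adjusted p = 0.819).

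The summed intensity of the 22 S phase genes was 10603 and 10670 in castaneus, 14369 and 13790 in domesticus, 11868 and 11542 in musculus and 10410 and 11090 in ssp, so that the domesticus arrays were the highest here as well. Summed levels of 6 spermatogonial markers, 4261 to 7432 in castaneus and 6203 to 8485 in domesticus, overlapped. In these sums replicate 1 was above replicate 2 in every group. Dazl fell from replicate 1 to replicate 2 in every group, from 3941 to 1090 in castaneus and from 2894 to 1376 in domesticus. It fell from 2852.5 to 937.6 in musculus and from 3043 to 1077 in ssp. Ddx4 was also higher on replicate 1 in every group. Not every marker did so, and Uchl1 read 1341 and 1392 in castaneus. Ddx4 was higher on each domesticus array (4144, 3270) than on either castaneus array (1753, 1238), with limma F, adjusted p = 0.172. Of the 6 markers, 4 had the higher mean in castaneus and 2 in domesticus. In bulk RNA a change in the share of a cell type cannot be told apart from a change in RNA per cell, and the part of either in the H2B and Rbbp4 readings was not tested. Whether the short probes match the transcripts of all 4 groups equally well was not tested, for these or any other readings.

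**Figure D4:**
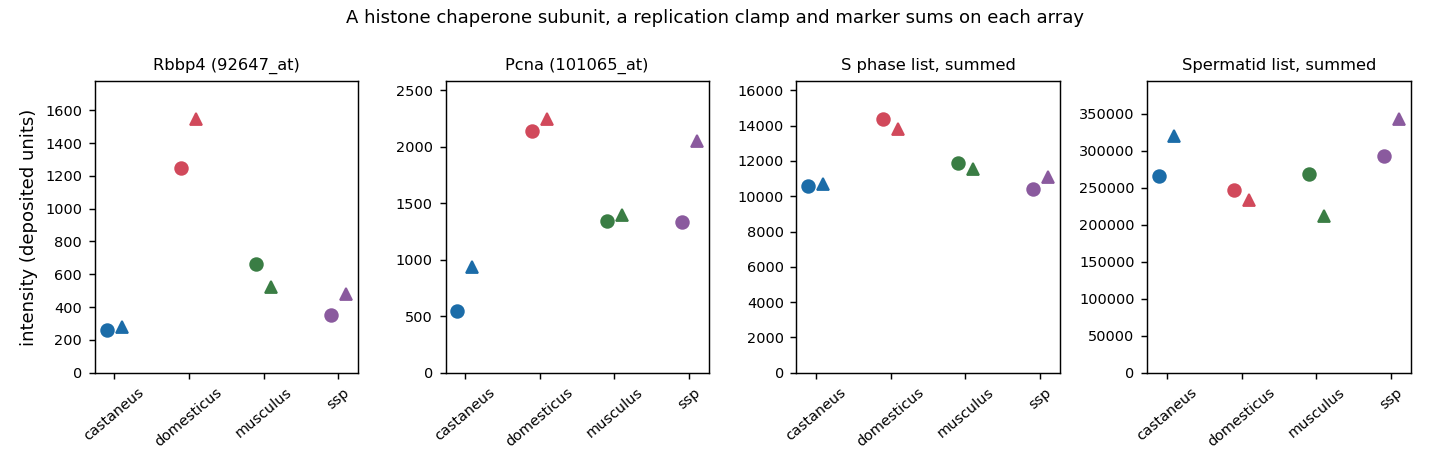
The vertical axes are deposited intensities from 0, and each point is 1 array (circle for replicate 1, triangle for replicate 2). Rbbp4 and the sum of 22 S phase genes are highest on both domesticus arrays. The sum of 10 spermatid genes is 246710 and 232894 in domesticus, and of the other 6 arrays only musculus replicate 2, at 211802, reads lower.

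In a list of 16 genes tied to the removal or replacement of histones in sperm, which includes deacetylases, 11 were tested. limma called 0 of them in the F test and in every pair. At an unadjusted F p under 0.05 there were 2 of the 11, against 15.9% of all tested probe sets. All 11 had a lower mean in musculus than in ssp, with a median log2 difference of -0.46, against -0.04 over all tested probe sets. Musculus was also lower than castaneus in 10 of the 11, and lower than domesticus in 10. The shift was not particular to this list. Of 10 spermatid markers, 9 were lower in musculus than in ssp, with a median of -0.40. Prm1, Prm2, Tnp1 and Tnp2 are in both lists. Ube2b, a ubiquitin-conjugating enzyme needed for sperm formation in the mouse, read 749.5 and 560.4 in castaneus, 1042 and 1213 in domesticus, 389.8 and 526 in musculus and 1484 and 1629 in ssp (limma F, adjusted p = 0.0832). Both ssp arrays were the highest and both musculus arrays the lowest. Prm3, a gene of the protamine cluster, read 17790.1 and 21265 in castaneus, 17651 and 17062 in domesticus, 7838 and 12244 in musculus and 17367 and 19461 in ssp (limma F, adjusted p = 0.305). Both musculus arrays were the lowest, which a second, dimmer Prm3 probe set did not share (limma F, adjusted p = 0.965). Hdac1, a histone deacetylase, read 3016 and 2201 in castaneus, 1501 and 1244 in domesticus, 1358.5 and 1293 in musculus and 2244 and 1519 in ssp, and the castaneus and ssp arrays overlapped (limma F, adjusted p = 0.332).

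Markers of the labelled tissue were present, and Tnp2, a spermatid transition protein gene, read 49943 to 84309.9 on the 8 arrays. Not all were bright, and in the same spermatid list Prm2 read 114 to 428.5 and Crem 145 to 297.5. Markers of other cells differed between groups, in more than 1 direction. The sum of 8 tested Leydig cell markers, of 9 listed, was 14004 and 14590 in musculus, against 3309 to 5686 on the other arrays, and 2 of the 8 passed limma's F test. The sum of 3 tested erythroid markers, of 5 listed, was 14001 and 17707 in musculus, against 1576 to 5568 on the other arrays. Nearly all of that sum was Hba-a1, a globin gene, while Slc4a1, the erythroid marker that passed (limma F, adjusted p = 0.0324), read 113 and 85.1 in castaneus, 23.7 and 18.4 in domesticus, 31.3 and 25.1 in musculus and 175 and 116 in ssp. Of 6 tested striated muscle markers, of 7 listed, 3 passed limma's F test, each with its own order of groups. Tnnc1, a troponin subunit, read 340.2 and 377 in castaneus, 20.7 and 7.0 in domesticus, 15.6 and 8.6 in musculus and 437 and 579 in ssp. Atp2a1, a muscle calcium pump, read 49.7 and 63.4 in castaneus, 64.3 and 46.7 in domesticus, 73.5 and 48.5 in musculus and 362 and 313 in ssp. Myh7, a myosin heavy chain, read 39.6 and 51.1 in castaneus, 176 and 158 in domesticus, 710.0 and 878 in musculus and 73.0 and 60.6 in ssp. Tnnc1 was thus high in castaneus and ssp, Atp2a1 in ssp and Myh7 in musculus. The part of these cells in the histone readings, including the differences between castaneus and domesticus and the shift in ssp, was not tested.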

How the data were processed

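Members and lists were chosen with earlier results of these data known. The authors deposited linear intensities, 1 per probe set and array, and the sources used here do not name the software that summarised the probes. From the values, each deposited array had been scaled to a common mean, since the mean trimmed by 2% at each end lay between 495.6 and 496.7. No further scaling was applied to the deposited intensities. Values below the 10th percentile (18.7) were raised to it, and log2 was taken. The filter, the 40th percentile on 2 or more arrays, left 8874 of 12422 for testing. limma 3.58.1 in R 4.3.3 fitted 1 mean per group over all 8 arrays, with 4 residual and 2.34 prior degrees of freedom, and was tested on simulated data. Symbols came from the platform annotation, updated by Entrez number through RefSeq's GRCm38.p6 table. In a list, a gene is represented by its brightest tested probe set. Named were all members that passed, germ cell and replacement histones, up to 4 members a class by range, and list genes that passed or the 3 widest. Precision is limited by the small number of arrays. Alternatives changed the scaling, floor, filter and variance model, added a replicate block or left out each array.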

Additional observations from a re-analysis of the deposited data

How the results depend on the processing

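Over 17 other settings, the count of members called among the 4 groups was 0 except with the dim filter at the 60th percentile, which gave 1, and the summed calls over the 6 pairs were 0 except for 1 with that filter and 1 with a trended, robust variance model. All of these calls fell on the probe set of H2bc4, H2bc6 and H2bc8. Leaving out 1 array gave 0 to 0 for both counts. For all probe sets the F count was 156, against 9 to 54 with 1 array left out, 31 without a filter, 309 with the filter at the 60th percentile, 383 with the trended, robust model and 42 with the replicate block. The median of castaneus against the others was 0.02, but 0.09 with median centring, -0.06 with quantile normalization and -0.07 to 0.10 with 1 array left out. That of musculus was 0.02, but 0.12 with quantile normalization and -0.04 to 0.09 with 1 array left out. That of ssp was -0.25, with -0.28 to -0.02 when 1 array was left out and -0.36 (median centring) to -0.10 (no filter) under the other settings. That of domesticus was 0.17, with 0.09 to 0.22 when 1 array was left out and 0.08 (no filter) to 0.19 (median centring) under the others. The cause was not tested.

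Replicate numbers were shared by the groups, and the correlation of replicate deviations between groups ran from 0.026 to 0.171, above 0.1 in 4 of the 6 pairs of groups. All 6 were above 0, but since 2 were under 0.1 and the labels do not say what a number marks, the numbers were not taken to pair the samples. With the replicate block, limma called 0 members among the groups and 0 over the pairs, and the H2bc4, H2bc6 and H2bc8 probe set had an adjusted p of 0.14. The 12 dim members, with 45 of 96 values at the floor, are limited by signal.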

Other observations

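Histone variants outside the naming rule gave no call either. Macroh2a1, which encodes macroH2A1, has 2 probe sets. The brighter read 534 and 799 in castaneus, 1494.7 and 1019 in domesticus, 850 and 994 in musculus and 1017.5 and 958 in ssp (limma F, adjusted p = 0.449). The dimmer read 147 and 128 in castaneus, 272 and 183 in domesticus, 191 and 156 in musculus and 124 and 154 in ssp (limma F, adjusted p = 0.5). The castaneus means were the lowest and the domesticus means the highest in both, by 1.89-fold and 1.62-fold. Cenpa, the centromeric H3 variant, read 163 and 288 in castaneus, 183 and 302 in domesticus, 328 and 173 in musculus and 246 and 279 in ssp, with all groups overlapping (limma F, adjusted p = 0.976).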
